A study of Mus musculus with 8 samples.

Results

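IL-6 family cytokines, their receptors and STAT3 were followed in sorted tumor endothelial cells as 10 genes: the ligands Il6, Lif and Il11, the receptor chains Il6ra, Il6st, Lifr and Osmr, the transcription factor Stat3 and its targets Socs3 and Cebpd. They were chosen by name for their place in the pathway, and they are 10 of the 20057 genes with values. The RNA came from 8 subcutaneous B16-F10 melanomas, with 1 tumor in each library, and the study asked how the endothelium of a tumor responds to CD40-stimulating antibody. The 8 mice were male C57BL/6 animals of 8 weeks that had been implanted with 250000 tumor cells, and no transgene or deletion is named for either group. In 4 mice agonistic CD40 mAb (anti-CD40, clone FGK4.5) was injected beside the tumor, and these libraries carry the mouse names 5N, 6L, 6R and 10N. The other 4 mice received rat IgG2a (clone 2A3) as isotype control and gave libraries 5L, 7N, 8N and 9L. Both antibodies were given as 2 injections of 30 µg, on days 13 and 16, and by the labels the mice were killed 1 day after the second one. The study's methods name a later day of sacrifice as well, and the labels tie no library to it. About 100000 living cells that carried CD31, an endothelial marker, and lacked CD45, a leukocyte marker, were sorted from each tumor, and 10 ng of RNA was used for each library. Both groups had thus received an antibody, and untreated tumors were not part of the comparison.

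Cytokines of the IL-6 family signal through the shared receptor chain gp130, the product of Il6st. Each ligand brings gp130 together with a further chain: IL-6 with IL-6 receptor α (Il6ra), LIF with its receptor (Lifr), oncostatin M with its receptor (Osmr), and IL-11 with IL-11 receptor α. Janus kinases bound to the receptor then phosphorylate STAT3, which enters the nucleus and induces genes that include its own inhibitor, Socs3. Endothelial cells are known to make little IL-6 receptor α and to respond to IL-6 bound to a soluble form of that receptor shed by other cells.

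Values are reads per gene divided by a size factor of the library, called normalized reads here. The reads behind them numbered 12512772 to 64938728 per library after agonistic CD40 mAb and 2971689 to 35583141 after isotype control, and the 3 shallowest libraries were all isotype controls. A single read was worth between 0.118 and 2.44 normalized reads. Endothelial transcripts were present in all libraries, with Cdh5, the endothelial cadherin, at 9535 to 14039 normalized reads. Ptprc, the gene for CD45, was at 0 to 21.1 and Cd3e, a T-cell gene, at 0 to 1.16. Transcripts of other cells were plentiful too: Col1a1, a collagen gene of fibroblasts, was at 26132 to 79249 and Pmel, a pigment cell gene, at 5736 to 18500 normalized reads. The 6 fibroblast markers summed to 49580 to 149128 normalized reads and the 10 endothelial markers to 35860 to 59570. In every library the fibroblast sum was the larger, without correction for length. The levels given here are therefore those of the sorted mixture, and the share of each cell type in them was not tested. In RNA from such a mixture, fewer cells of a type and less RNA per cell cannot be told apart. The study's threshold asks for means that differ at least 1.5-fold and for a p, before adjustment, no larger than 0.05. By this threshold in limma, 166 of the 12969 genes tested were higher (1.28%) and 31 were lower (0.239%) after agonistic CD40 mAb, where a gene was tested if either group's mean exceeded 10 normalized reads. Of these genes, 2 (0.0154%) had a Benjamini-Hochberg adjusted p under 0.05 in limma, 261 (2.01%) had an unadjusted p under 0.05, and in 204 (1.57%) the groups did not overlap.

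The promoters of Il6 and Socs3 are shown because one belongs to the ligand that varied most between tumors and the other to the feedback target of STAT3. Both are the 250 bases before the start of the gene from RefSeq on GRCm38.p6, the assembly also called mm10, and capitals mark the matches described after them. The Il6 stretch lies at chr5:30012864-30013113 on the plus strand. The Socs3 stretch lies at chr11:117969367-117969616 on the minus strand and is given in the direction of the gene. It lies inside the longer Socs3 gene of GENCODE M21 whose coordinates are given with its values, since the annotations place the start differently.
Il6: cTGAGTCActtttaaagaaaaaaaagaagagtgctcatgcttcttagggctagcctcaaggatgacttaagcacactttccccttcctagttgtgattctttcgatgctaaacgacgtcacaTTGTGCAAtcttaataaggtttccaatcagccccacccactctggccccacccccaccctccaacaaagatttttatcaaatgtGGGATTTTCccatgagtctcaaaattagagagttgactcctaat
Socs3: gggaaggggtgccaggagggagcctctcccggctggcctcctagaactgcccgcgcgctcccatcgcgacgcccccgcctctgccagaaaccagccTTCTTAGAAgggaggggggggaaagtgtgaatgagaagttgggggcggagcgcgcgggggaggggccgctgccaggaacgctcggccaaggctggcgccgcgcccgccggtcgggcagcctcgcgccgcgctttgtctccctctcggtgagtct
Promoters of 9 of the 10 genes were in the RefSeq table, which gave 11 sequences because Il11 and Lifr have 2 each, and all 32851 mouse promoters of the same length were searched on both strands with the same letters. The STAT motif TTCNNNGAA was in the Socs3 promoter, 154 to 146 bases before the start, and in 7.02% of all promoters. The NF-κB motif GGGANTTTC was in the Il6 promoter, 44 to 36 bases before the start, and in 0.941% of all promoters. A C/EBP motif, TTGCNNAA, was found in Il6 on the opposite strand, 128 to 121 bases before the start, against 9.56% of all promoters. The AP-1 motif TGANTCA stood 249 to 243 bases before the start of Il6, 228 to 222 before that of Lif and 98 to 92 before a start of Il11, and in 6.75% of all promoters. The CRE motif TGACGTCA was in 1.55% of all promoters and in none of the 11. The matches do not overlap each other. A match of letters is not a measured binding site, and its absence says only that these letters are not in this window.

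No difference between the treatments passed the threshold for any of the 10 genes in limma, none had an unadjusted p under 0.05, and the groups overlapped for all 10, beside 1.28% of all genes called higher and 0.239% called lower. The adjusted p was 1.00 for each, and edgeR and DESeq2 on the recovered reads also called 0 of them. On the log2 scale 9 were higher after agonistic CD40 mAb and 1 was lower, with a median difference of 0.13, beside a median of 0.0046 and 51.3% higher over all 12969 genes. That direction was not kept between tools, since 6 of the 10 were higher in edgeR and 5 in DESeq2. The smallest unadjusted limma p was 0.156, for Lifr. The 95% interval of the ratio ran from 0.880 to 1.26 for Stat3 and from 0.864 to 1.47 for Socs3, both within 1.5-fold in either direction. For the remaining genes the interval reached past 1.5-fold in at least 1 direction.

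**Figure D1:**
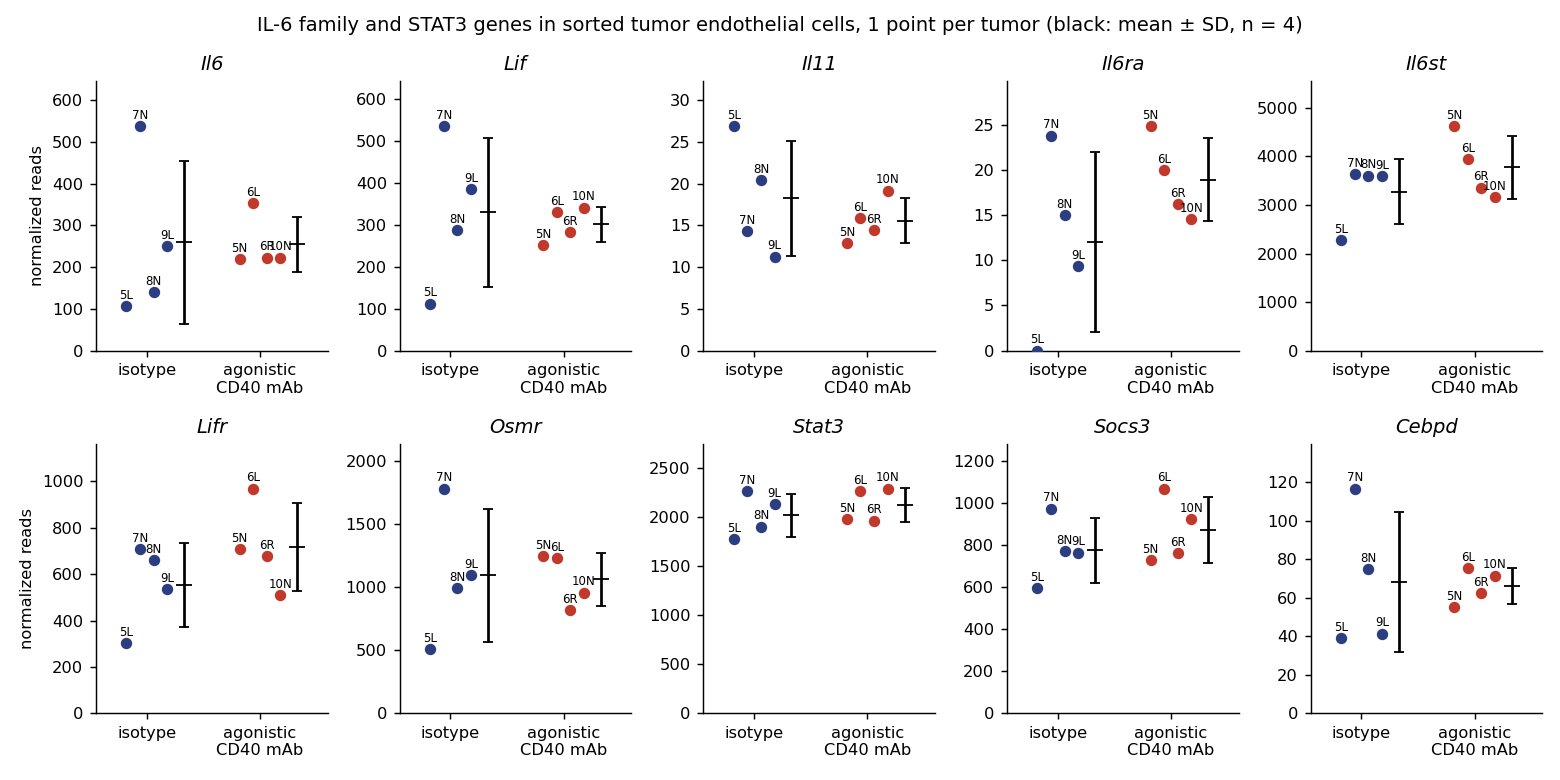
Normalized reads (linear axes from 0) of the 10 genes in each of the 8 tumors, with blue points for isotype control and red points for agonistic CD40 mAb, labeled by mouse, and black bars for mean ± SD of 4. The groups overlap in all 10 panels, and for 9 of the 10 genes isotype library 5L holds the lowest point, with Il11 as the exception.

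Il6, the founding ligand of the family (chr5:30013114-30019981, plus strand), was measured at 220, 352, 223 and 223 normalized reads after agonistic CD40 mAb in 5N, 6L, 6R and 10N. In the isotype controls it was at 108 in 5L, 538 in 7N, 140 in 8N and 251 in 9L. The treated tumors lay between the extremes of the controls, which spanned 5.00-fold and included both the lowest and the highest value of the series. Means were 254 ± 65.2 and 259 ± 196 normalized reads (SD, n = 4 each), a ratio of 0.982. On the log2 scale the difference had the other sign, at 0.23 ± 0.42 (SE), with a limma p of 0.599 and an interval of the ratio from 0.616 to 2.22. This value depended on controls 7N and 5L and on the tool. Without 7N the log2 difference was 0.67 with an unadjusted limma p of 0.0430, past the study's threshold. Without 5L it was −0.10, and with all libraries it was −0.0049 in edgeR and −0.0187 in DESeq2.

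Lif, the leukemia inhibitory factor gene (chr11:4257557-4272514, plus strand), stood at 251, 329, 282 and 341 normalized reads in the treated tumors and at 112, 535, 287 and 385 in the controls, in the same order of libraries. Treated values again fell inside the range of the controls, whose lowest and highest tumors were the same as for Il6. The log2 difference was 0.06 ± 0.38 (SE), with a limma p of 0.874, and it became −0.38 without 5L and −0.14 in edgeR. Il11, a ligand with its own α receptor (chr7:4772373-4782859, minus strand), was low, at 12.8, 15.8, 14.4 and 19.2 normalized reads in the treated tumors against 26.9, 14.3, 20.4 and 11.3. Alone among the 10 genes it had its highest value in 5L, and that value came from 11 reads. The log2 difference of Il11 was −0.16 ± 0.37 (SE) with a limma p of 0.678, and it was 0.05 without 5L. Of its transcript windows of 50 bases, 2.70% also occur in other genes.

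Il6st encodes gp130, the chain shared by the whole family (chr13:112464070-112510086, plus strand), and it was measured at 4627, 3941, 3359 and 3166 normalized reads after agonistic CD40 mAb. The controls were at 2273 in 5L and between 3595 and 3635 in the other 3 tumors, so that 2 treated tumors lay above all controls and 2 lay between 5L and the rest. Means were 3773 ± 658 and 3277 ± 670 normalized reads (SD, n = 4 each), a ratio of 1.15. The log2 difference was 0.21 ± 0.18 (SE), with a limma p of 0.266, and it was 0.05 without 5L.

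Lifr, the LIF receptor gene (chr15:7090614-7197489, plus strand), was at 707, 968, 679 and 511 normalized reads after agonistic CD40 mAb and at 303, 709, 662 and 535 after isotype control. The highest tumor was a treated one and the lowest a control, and the other 6 were mixed. The ratio of means was 1.30 and the log2 difference 0.41 ± 0.27 (SE), with an interval of the ratio from 0.880 to 2.00. That difference was 0.15 without 5L and 0.16 with library quality weights. Osmr, the oncostatin M receptor gene (chr15:6813577-6874969, minus strand), was at 1245, 1228, 819 and 956 normalized reads against 508, 1780, 990 and 1096. It repeated the pattern of Il6 and Lif, with both extremes in the controls 5L and 7N. The log2 difference of Osmr was 0.07 ± 0.31 (SE) with a limma p of 0.823, and it had the opposite sign in edgeR and DESeq2, at −0.03 and −0.04.

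Il6ra, the chain that binds IL-6 itself (chr3:89864059-89913196, minus strand), rested on few reads in the controls, with 0 reads in 5L, 10 in 7N and 11 in 8N, the 3 libraries with the fewest reads, and 43 in 9L. The 4 treated libraries held 316 reads, of which 211 were in 5N. The values were 24.9, 19.99, 16.2 and 14.5 normalized reads after agonistic CD40 mAb and 23.8, 15.0 and 9.32 in controls 7N, 8N and 9L. In 5L no read was counted, which at that depth allows up to 3 reads or 7.33 normalized reads. The means of 18.9 ± 4.58 and 12.02 ± 9.98 normalized reads (SD, n = 4 each) gave a ratio of 1.57, but the groups overlapped. The log2 difference of 1.29 ± 0.85 (SE), with a limma p of 0.160, was set largely by the value of 0, since it was 0.29 without 5L, 2.12 with a pseudocount of 0.1 and 0.51 with a pseudocount of 10. A gene model, Gm42809, overlaps exons of Il6ra on the opposite strand, and the library kit did not mark strand.

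Stat3, the transcription factor at the end of the cascade (chr11:100885098-100939540, minus strand), was at 1985, 2267, 1968 and 2293 normalized reads after agonistic CD40 mAb and at 1777, 2267, 1907 and 2133 after isotype control. It was the steadiest of the 10 genes, with a highest value only 1.29-fold above the lowest. Means were 2128 ± 176 and 2021 ± 221 normalized reads (SD, n = 4 each), and the log2 difference was 0.08 ± 0.12 (SE) with a limma p of 0.528. Exons of Stat5a on the opposite strand overlap those of Stat3. Phosphorylation, the step that activates STAT3, is not measured by RNA.

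Socs3, the feedback inhibitor that STAT3 induces (chr11:117966079-117970047, minus strand), was at 727, 1068, 761 and 923 normalized reads in the treated tumors and at 594, 973, 772 and 764 in the controls. The groups were interleaved, with the lowest value in control 5L and the highest in treated 6L. The log2 difference was 0.17 ± 0.17 (SE), with a limma p of 0.347. Cebpd, a transcription factor gene that STAT3 induces in acute inflammation (chr16:15887286-15891031, plus strand), was at 55.0, 75.4, 62.6 and 71.4 normalized reads against 39.1, 117, 74.9 and 41.4. Its extremes were again in controls 5L and 7N, and the log2 difference was 0.09 ± 0.34 (SE) with a limma p of 0.784 and −0.0039 in DESeq2. Exons of Spidr overlap Cebpd on the opposite strand.

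**Figure D2:**
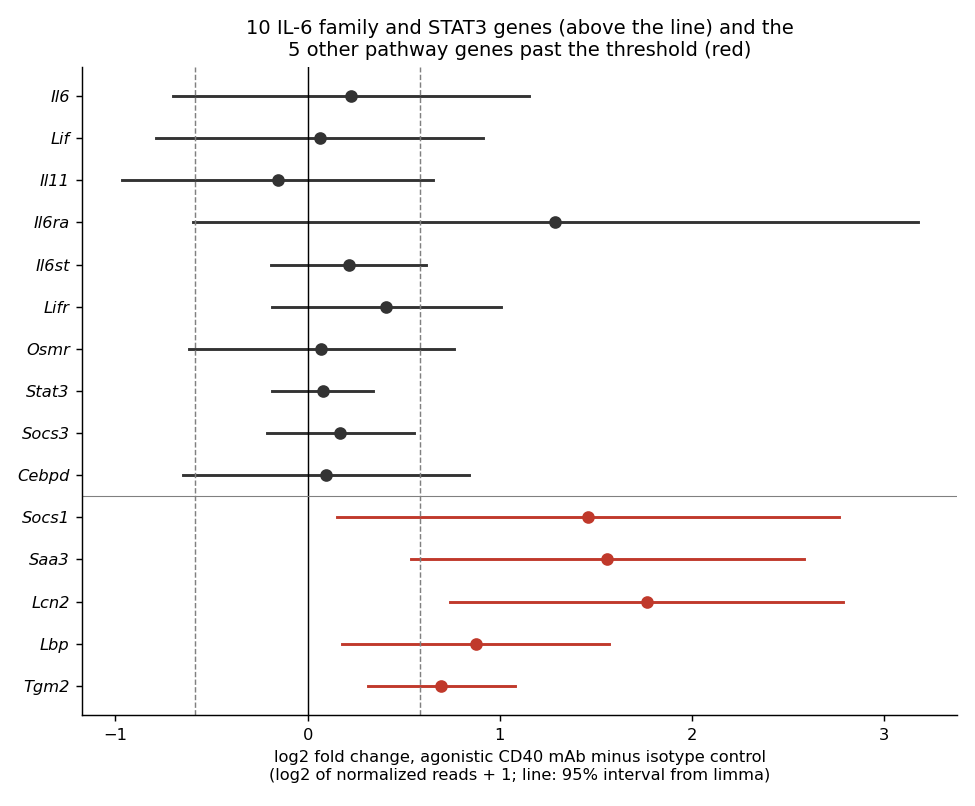
Log2 fold change between agonistic CD40 mAb and isotype control from limma on log2(normalized reads + 1), with the point for the estimate and the line for its 95% interval, for the 10 genes (black) and for the 5 other pathway genes past the threshold (red). Dashed lines mark a 1.5-fold difference; all 10 black intervals include 0, and those of Stat3 and Socs3 lie within the dashed lines.

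Levels were compared between genes per kb of the longest coding transcript in GENCODE M21, over all 8 libraries. Il6st was highest, at 406 ± 77.1 normalized reads per kb (SD, n = 8), followed by Stat3 at 343 ± 32.0 and Socs3 at 322 ± 60.0. Osmr, at 196 ± 67.3, was the highest of the receptor chains among the 10 genes after Il6st, and Lifr, at 65.7 ± 19.9, came below the ligands Il6 (109.6 ± 57.6) and Lif (78.3 ± 29.9). At the lower end were Cebpd (17.9 ± 6.55), Il11 (8.67 ± 2.60) and Il6ra (1.79 ± 0.935).

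Each of the 9 neighboring pairs in that order was compared within libraries by a two-sided exact sign-flip test, in which 8 libraries cannot give a p below 0.00781. Socs3 exceeded Osmr, Osmr exceeded Il6, Lifr exceeded Cebpd and Il11 exceeded Il6ra in 8 of 8 libraries (exact p = 0.00781 each, 0.0176 after Benjamini-Hochberg adjustment over the 9 pairs). Il6 exceeded Lif in 7 of 8 libraries and Cebpd exceeded Il11 in 7 of 8 (exact p = 0.0312 and 0.0156, adjusted 0.0469 and 0.0281), but Il6 over Lif had an unadjusted exact p of 0.0625 without 5N, without 6L, without 6R, without 5L and without 7N. On this length the first 3 genes were not separated beyond their spread: Il6st exceeded Stat3 in 6 of 8 libraries and Stat3 exceeded Socs3 in 6 of 8 (exact p = 0.0469 and 0.0938, adjusted 0.0603 and 0.105). Lif and Lifr were not separated either, with Lif higher in 4 of 8 libraries (exact p = 0.25). The order and which neighbors are separated depend on the transcript used for length. With the median coding transcript Il6st exceeded Stat3 by 1.28 and Stat3 exceeded Socs3 by 0.81 on the log2 scale (exact p = 0.00781 each, not adjusted), and Cebpd and Il11 were not separated (log2 difference 0.14, exact p = 0.531). On that length Il6 stood at 244 and Osmr at 226 per kb (log2 difference of Osmr over Il6 −0.03), and Lifr at 203 stood above Lif at 80.6 (log2 difference of Lif over Lifr −1.38, exact p = 0.00781, not adjusted).

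**Figure D3:**
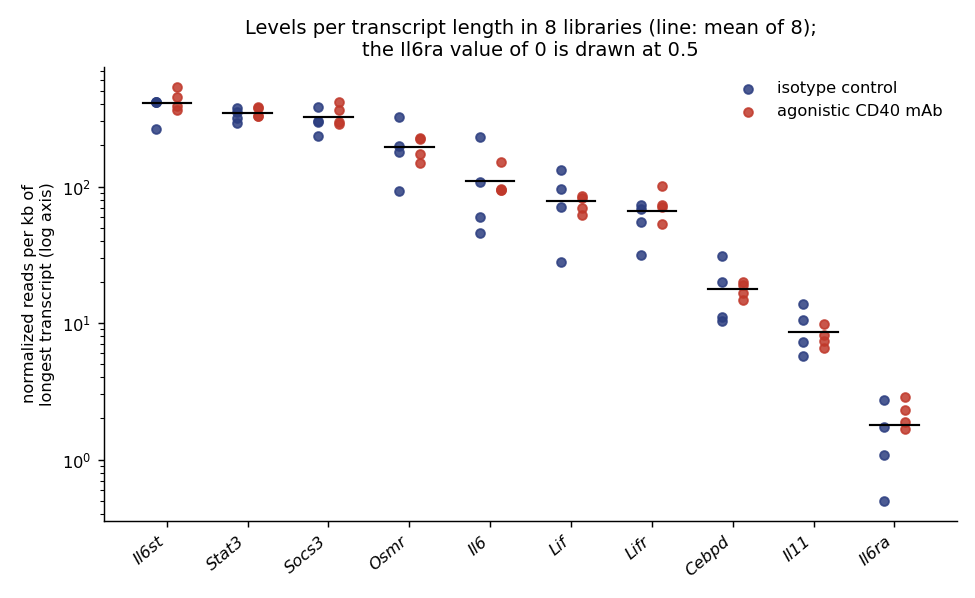
Normalized reads per kb of the longest coding transcript (log axis) of the 10 genes, ordered by their mean, with 1 point per library in blue for isotype control and red for agonistic CD40 mAb and a line at the mean of 8. The means fall from 406 for Il6st to 1.79 for Il6ra, and the single value of 0, for Il6ra in 5L, is drawn at 0.5.

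The SD of normalized reads was larger among the 4 controls than among the 4 treated tumors for Il6, Lif, Osmr, Cebpd, Il11 (6.92 against 2.69) and Il6ra (9.98 against 4.58). It was closer for Stat3 (221 against 176), Il6st (670 against 658), Lifr (182 against 189) and Socs3 (155 against 157), and these differences in spread were not tested. Control 5L held the lowest value for 9 of the 10 genes, and control 7N held the highest for Il6, Lif, Osmr and Cebpd. The highest library was 5.00-fold above the lowest for Il6, 4.76-fold for Lif, 3.501-fold for Osmr, 3.19-fold for Lifr, 2.98-fold for Cebpd and 2.39-fold for Il11. The spread was smaller for Il6st (2.04-fold), Socs3 (1.799-fold) and Stat3 (1.29-fold), and Il6ra had a value of 0.

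Across the 8 tumors the level of Il6 was compared with those of the other 9 genes. Pearson's r of log2 values with Il6 was 0.869 for Osmr, 0.846 for Lif, 0.838 for Stat3 and 0.814 for Socs3 (exact permutation p = 0.00866, 0.0114, 0.00722 and 0.0161), and after adjustment over the 9 genes compared p was 0.0342 for the first 3 and 0.0362 for Socs3. Spearman's rho was 0.643, 0.857, 0.833 and 0.786, with exact adjusted p between 0.0692 and 0.198. The other 5 genes had r from −0.655 for Il11 to 0.684 for Il6ra, with exact adjusted p between 0.0881 and 0.153. The relations of Osmr and Lif rest on the 2 extreme tumors, since without 7N and 5L r was 0.434 and 0.403. For Stat3 and Socs3 r was then 0.722 and 0.639. Within the 4 treated tumors r with Il6 was 0.507 for Osmr, 0.480 for Lif, 0.542 for Stat3 and 0.824 for Socs3. Within the 4 controls it was 0.920, 0.881, 0.970 and 0.908. Without 5L, without 7N or without 6L, none of the 9 relations kept an adjusted p of at most 0.05. Il6 also ran with sums of the marker and handling lists described next, with Pearson's r of 0.877 for the handling genes, 0.812 for macrophage markers and −0.755 for melanoma markers (exact permutation p = 0.00685, 0.0145 and 0.0326, adjusted over the 6 lists compared 0.0411, 0.0435 and 0.0652). Spearman's rho was 0.786, 0.786 and −0.714 (exact adjusted p = 0.0838, 0.0838 and 0.104), and without 7N and 5L r was 0.773, 0.866 and −0.480. For mural, fibroblast and endothelial markers r was 0.714, 0.454 and 0.170, with exact adjusted p between 0.0669 and 0.685. For the other 9 genes, r with the melanoma sum ran from −0.928 for Osmr to 0.727 for Il11. With the mural sum it ran from −0.522 for Il11 to 0.885 for Lif. The part of these lists in the relations of Il6 or of the other genes was not tested.

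Marker sums of other cells moved with these extremes, and their part in the result was not tested. In 5L the 6 melanoma markers summed to 91845 normalized reads, beside 35283 to 59929 in the other 7 libraries. The same library had the lowest sum of the 6 fibroblast markers, 49580 against 65601 to 149128, and of the 6 mural markers, 11041 against 14466 to 34908. Tumor 7N had the highest sum of mural markers, 34908, and the highest sum of 17 immediate-early and heat-shock genes known to be induced by handling of tissue, 50631 beside 35034 to 47739 in the others. A difference between the treatments was not detected in these 4 sums (exact permutation p = 0.714 for melanoma, 0.714 for fibroblast, 0.571 for mural and 0.429 for handling genes). No gene of these 4 lists was called. The 10 endothelial markers summed to 40757 to 59570 after agonistic CD40 mAb and to 35860 to 50850 after isotype control, with the lowest sum in 5L. The 5 leukocyte markers were at 72.7 to 181 and 70.9 to 197, the 7 macrophage markers at 318 to 518 and 212 to 464, and the 6 T-cell and NK-cell markers at 1.13 to 8.42 and 0 to 3.03. Of the macrophage markers, Mrc1 passed the threshold (13.6 to 30.9 normalized reads after isotype control, 36.3 to 41.9 after agonistic CD40 mAb). The 5 lymphatic endothelial markers summed to 2915 to 4774 and 2019 to 3603.

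**Figure D4:**
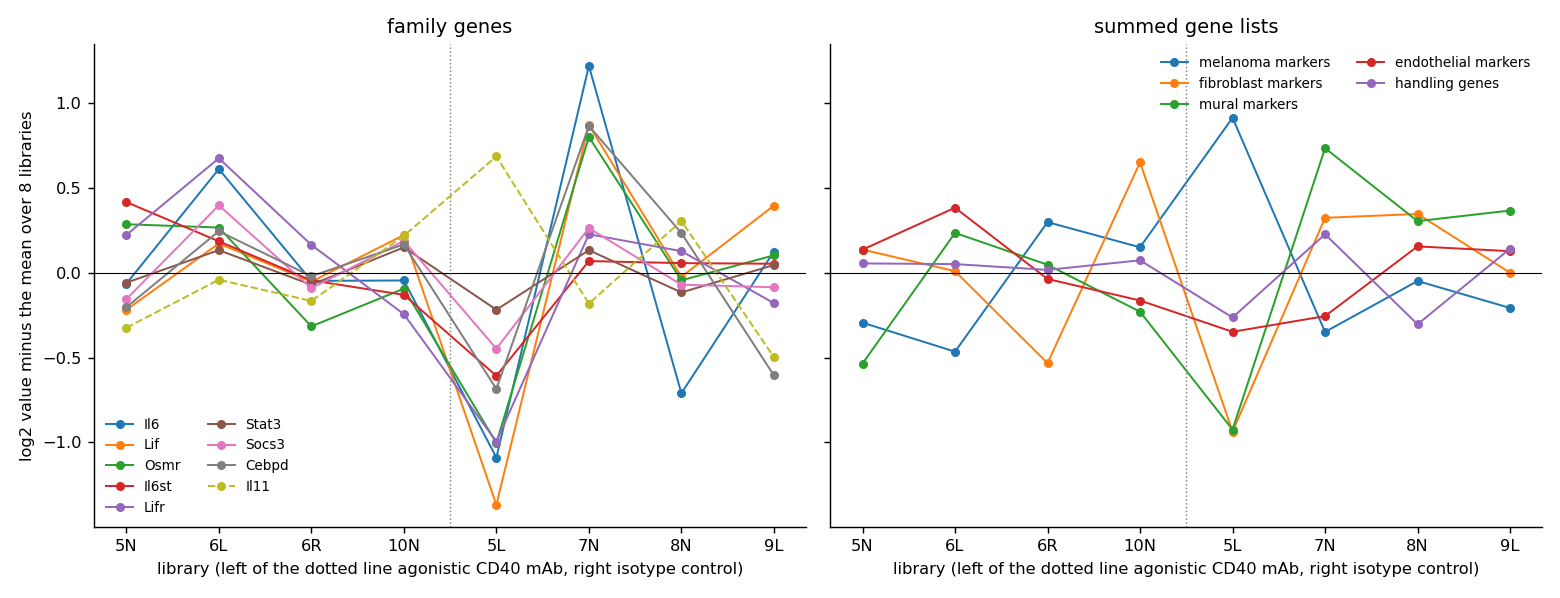
Log2 value of 9 of the 10 genes (left, log2(normalized reads + 1), Il11 dashed, Il6ra left out because of its value of 0) and of each summed list (right, log2 of the sum) in the 8 libraries, minus its mean over the 8. Il6, Lif and Osmr fall together in 5L and rise together in 7N, and Il11 runs the other way in 5L, where the melanoma sum is highest at 91845 normalized reads.

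Genes with the most similar course over the tumors were looked for among the 10736 genes with a mean of at least 50 normalized reads, by Pearson's r of log2 values centered on the group means. Among the closest to Il6 were Nfxl1 (r = 0.984) and the gene model Gm10336 (0.982). Closest to Lif were Sra1 (0.995), Creb3 (0.992) and Itpkc (0.992). Stat3 ran most closely with Mrpl32, a mitochondrial ribosomal protein gene (0.989), Dlg4 (0.972) and Pxdc1 (0.971), and Socs3 with Cmya5 (0.990), Lgi1 (0.984) and Rgs9 (0.982). With 8 libraries, 209 genes reached r of 0.9 with Il6, 396 with Lif, 107 with Socs3 and 43 with Stat3, so that a high r singles out no gene.

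Other genes of the pathway were taken as 51 genes in 6 lists, of which 43 were tested. Of these 43, 5 were called higher after agonistic CD40 mAb, 0 were called lower and none had an adjusted p under 0.05 in limma, while 32 were higher on the log2 scale with a median difference of 0.09. Over all genes tested, 1.28% were called higher and 51.3% were higher on the log2 scale. Without control 5L the 5 became 2, and the count of 32 was not repeated. The lists were drawn up with earlier results of these data known, so that these counts are a description. The 5 were Socs1, Saa3, Lcn2, Lbp and Tgm2, of which Socs1 was tested only because its treated mean passed the limit of 10, and with a limit of 50 the count was 4. Of the 5, all but Socs1 had groups that did not overlap, as had 1.57% of all genes tested in either direction. The remaining ligands were low or at the limit. Clcf1, a ligand of the CNTF receptor, was at 69.2 ± 26.6 normalized reads after agonistic CD40 mAb and at 72.0 ± 17.5 after isotype control (SD, n = 4 each). Cntf, the ciliary neurotrophic factor gene, was at 15.6 ± 7.00 and 15.2 ± 6.79 (SD, n = 4 each), with 78.0% of its windows shared with Zfp91 or other genes. Osm, the ligand of Osmr, was below the filter with 97 reads in the treated and 42 in the control libraries, Ctf1 had 67 and 23, and Il27, Ebi3 and Il31 had at most 13 reads in a group. Neither of the 2 ligands tested was called.

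Among the other receptors, Il11ra1, the α chain for IL-11, was at 478 ± 90.1 and 454 ± 117 normalized reads, with 46.3% of its windows shared with other genes, which leaves its count uncertain. Cntfr, the CNTF receptor gene, was at 82.6 ± 45.4 and 103 ± 84.5, and none of the 3 receptors tested was called. Jak1, the main kinase of gp130, was at 3252 ± 377 and 3213 ± 615 normalized reads with a log2 difference of 0.03 ± 0.16 (SE). Jak2, a further kinase of the family, was at 1433 ± 191 and 1334 ± 258 normalized reads with a log2 difference of 0.12 ± 0.16 (SE). None of the 5 kinase and STAT genes listed was called. Adam10 and Adam17, proteases that shed IL-6 receptor α, were at 2406 ± 258 and 1059 ± 115 after agonistic CD40 mAb and at 2507 ± 258 and 1065 ± 34.7 after isotype control, and neither was called. Of the 8 negative regulators tested, Socs1 alone was called, and the phosphatase genes Ptpn11 and Ptpn1 had ratios of 0.999 and 1.01.

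Of 23 STAT3 target genes tested, 4 were called higher and 0 lower, and 19 were higher on the log2 scale. Over all 12969 genes tested, 1.28% were called higher, 0.239% were called lower and 51.3% were higher on the log2 scale. The 4 are targets that other signals, such as NF-κB, are known to induce as well. Saa3, an acute-phase protein gene, was at 1775, 823, 804 and 1271 normalized reads after agonistic CD40 mAb and at 122, 578, 591 and 470 after isotype control, a ratio of 2.65 with a limma p of 0.00655 and an adjusted p of 0.939. Lcn2, which encodes the iron-siderophore binding protein lipocalin-2, was at 98.5, 102, 62.6 and 70.3 against 7.33, 26.2, 38.1 and 38.4, a ratio of 3.03 with a limma p of 0.00305 and an adjusted p of 0.599. The lowest of these, in 5L, came from 3 reads. For Lbp, the gene of the lipopolysaccharide binding protein, the values were 469, 467, 312 and 401 against 103, 293, 302 and 265, a ratio of 1.71 with a limma p of 0.0185 and an adjusted p of 1.00. Tgm2, a transglutaminase gene, was at 1524, 2245, 1818 and 1783 against 836, 1092, 1360 and 1296, a ratio of 1.61 with a limma p of 0.00209 and an adjusted p of 0.485, and exons of Rprd1b and Gm20412 overlap it on the opposite strand. Hif1a and Ccnd1, the genes of the list with the most normalized reads, not corrected for length, had ratios of 0.986 and 1.14 and were not called. Control 5L was the lowest library for all 4 called targets. It was also the lowest for others of the 19, such as Timp1, whose ratio of means was 0.965. The count of 19 was not repeated without 5L, in edgeR or in DESeq2. Without 5L, the log2 difference was 1.02 for Saa3 and 1.25 for Lcn2, both still called, and 0.51 for Lbp and 0.55 for Tgm2, whose ratios were then below 1.5. Tgm2 also fell below that ratio without treated 6L, at a log2 difference of 0.60.

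Socs1, an inhibitor of Janus kinases, was at 10.5, 19.2, 19.9 and 45.3 normalized reads after agonistic CD40 mAb and at 2.44, 4.76, 13.6 and 12.6 after isotype control, where 5L and 7N held 1 and 2 reads. Its ratio was 2.84 with a limma p of 0.0318 and an adjusted p of 1.00, the groups overlapped, and it passed the limit of 10 through the treated group alone, and it kept its call in 9 of 16 alternatives. The log2 ratio of Socs1 to Socs3 within each library was −5.99, −5.72, −5.19 and −4.32 in the treated tumors and −7.43, −7.40, −5.72 and −5.82 in the controls. Controls 5L and 7N lay below all treated tumors, and 8N and 9L lay among them. Group means were −5.31 ± 0.74 and −6.59 ± 0.95 (SD, n = 4 each), a difference of 1.29 with a two-sided exact permutation p of 0.114, where 8 libraries allow no p below 0.0286. The 2 lowest of these ratios rest on the 1 and 2 reads of Socs1, below the floor of 3 reads, so no comparison of the 2 responses is drawn from them.

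**Figure D5:**
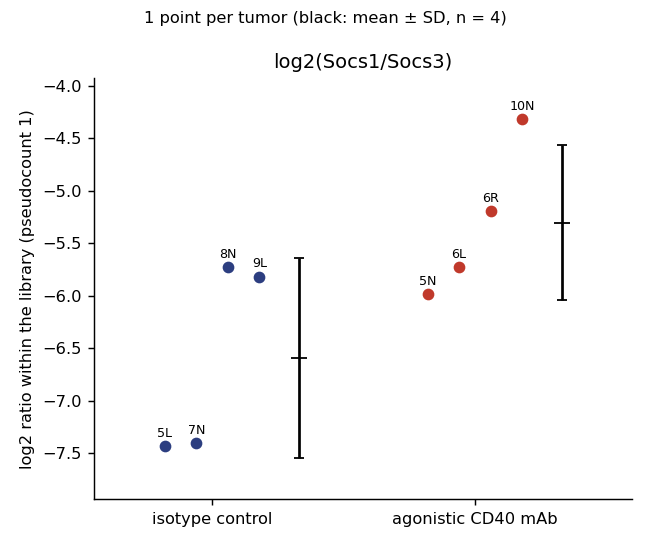
Log2 ratio of Socs1 to Socs3 within each library, with pseudocount 1, as 1 point per tumor in blue for isotype control and red for agonistic CD40 mAb, and black bars for mean ± SD of 4. The means are −6.59 for isotype control and −5.31 for agonistic CD40 mAb, and the groups overlap.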

How the data were processed

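Sorted tumor endothelial cells from 8 B16-F10 tumors, 4 per treatment, gave 1 RNA-seq library each. The authors deposited 1 signal value per gene and library. They aligned reads to mm10 with TopHat2 (Bowtie2 2.2.1), assigned them to genes in Partek 6.6 and divided counts by DESeq2 size factors, and the submitters' processing notes also name CASAVA 1.8. Their methods also describe a correction for harvest day, a floor and a trim of low genes. The deposited values hold zeros, and 99.9% are whole multiples, within 0.1 read, of 1 read in their library, so those steps are not visible in them. The labels give the same interval from last injection to sacrifice for all mice and no calendar date, so no harvest date could enter the model. The reads were recovered from these steps. They carry no molecular identifiers, so that read-based limits hold for counting error alone.

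Tests ran on the deposited values as log2(value + 1) with limma 3.58.1 (R 4.3.3, two-sided, trend in eBayes) over 12969 genes in which either group's mean exceeded 10, with treatment as the only term and Benjamini-Hochberg adjustment over all of them. A gene was called where the means differed at least 1.5-fold and p before adjustment did not exceed 0.05. Ratios, means and SD are on the scale of normalized reads, and log2 differences come from log2(value + 1), where the pseudocount shrinks the change of genes with low values. Exact permutation tests of the group labels used the 70 assignments of 8 libraries, and likeness used 8 libraries. Positions and lengths came from GENCODE M21, which held 19324 of the 20057 symbols, and promoters from RefSeq.

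The 10 genes, the lists of other pathway genes and of markers, and the tests were chosen with earlier results of these data known. Genes to be named were those past the threshold and the 2 with the largest mean in each list, and the 3 most alike in course to Il6, Lif, Socs3 and Stat3. Alternatives were pseudocounts of 0.1 and 10, all genes, a limit of 50, quantile normalization, edgeR 4.0.16 (quasi-likelihood test) and DESeq2 1.42.0 on recovered reads, library quality weights, and each library left out in turn. Leaving out 5L and 7N together was chosen after seeing the data. The fits were tested on simulated data. Some genes that these rules would name are not reported here.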

Additional observations from a re-analysis of the deposited data

Results flagged for a closer look

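Within each group of 4, a library was looked for whose distance to the nearest other library, as a share of the whole range of the group, exceeded Dixon's 95% critical value. Over 27 named genes in 2 groups this gave 54 looks, of which chance alone gives about 1 in 20, and 4 stood out. Il6 was highest in treated tumor 6L, at 352 normalized reads, while the other 3 treated tumors lay at 220 to 223 (share 0.978). Il6st was lowest in control 5L, at 2273 normalized reads beside 3595 to 3635 in the other controls (share 0.971). Ptpn11, a phosphatase gene of the cascade, was lowest in treated 6L at 1389 normalized reads beside 1464 to 1473 (share 0.894). Ccnd1, a cyclin gene, was lowest in control 7N at 2132 normalized reads beside 3562 to 3749 (share 0.884).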

How the results depend on the processing

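Of 485 alternative values, 425 kept their direction and their side of the threshold, 22 reversed, 25 lost and 7 gained a call or a p past its threshold, and 6 counts moved by over 1.5 times. Of the reversed values, only Osmr over Il6 per kb had been past its threshold, and the cause was not tested. In edgeR the log2 difference was −0.0049 for Il6, −0.14 for Lif and −0.0329 for Osmr, and in DESeq2 −0.0187 for Il6, −0.13 for Lif, −0.0367 for Osmr and −0.0039 for Cebpd. With library quality weights it was −0.0170 for Lif and −0.0356 for Osmr. Leaving out 1 library gave ranges of −0.10 to 0.67 for Il6, −0.38 to 0.36 for Lif, −0.25 to 0.35 for Osmr, −0.35 to 0.0465 for Il11 and −0.12 to 0.40 for Cebpd. Without 5L and 7N it was −0.16 for Lif and 0.0179 for Il11. Per kb of the median transcript, Osmr over Il6 was −0.0283 and Lif over Lifr −1.38. The number of the 10 genes called ranged from 0 to 1 when 1 library was left out, with 1 (Il6) without 7N. That of the other pathway genes ranged from 2 to 6, and it was 2 without 5L and 2 without 5L and 7N. Without 1 library, the relations of Il6 with an adjusted p of at most 0.05 numbered 0 to 5. Leaving out 5L and 7N together was added after seeing the data, and it gave log2 differences of 1.07 for Saa3 and 1.07 for Lcn2. Depth limits genes with few reads, such as Il6ra, Il11, Socs1, Cntf and the untested ligands, since 1 read is worth up to 2.44 normalized reads. No paired analysis was run because the labels name no pairs of mice. Some mouse names share a number, such as 5N and 5L, and what it stands for is not given.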
